A study of Rattus norvegicus with 9 samples.

Results

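The expression levels of complement genes in right ventricle were compared between sham operation (Sham) and pulmonary artery banding (PAB), the latter with (F+) or without (F-) fibrosis. The genes considered were C1qa, C1qb, C1qc, C1r, C1s, C2, C3, Cfb and C5ar1, and each was taken from the array feature annotated with that 1 symbol. Of these 9 genes, 7 had such a feature, among 14506 genes with a feature of their own on the array. C2 and Cfb, which RefSeq places next to each other in the rat assembly GRCr8, share 1 feature that carries both symbols, so no level is given for either. None of the 7 features lay in the dimmest 33.3% of all 29215 features.

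All hearts came from Sprague-Dawley rats, and no age is given for them. The paper names a sex, male, only for the rats used in cell isolation. Banding narrows the pulmonary artery and overloads the right ventricle. Banded hearts were taken 4 weeks after the operation and sorted by their fibrotic area, above 6.5% in F+ and below it in F-, so these groups differ by outcome and not by treatment. Sham-operated hearts form the third group, and each group has 3 Affymetrix Rat Gene 1.0 ST arrays. Values are the signal intensities that the authors deposited, and the sources used here do not give their scale or normalization. The highest value of an array was 188.4 to 190.4, so ratios here are ratios of deposited values on an unknown scale. A fold change is the difference of mean log2 deposited values. Tests were run with limma on all features together, with Benjamini-Hochberg adjustment. Whether each array is a separate animal is not stated, so a p-value here rests on the spread among these arrays alone, and that spread may be technical.

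Complement is a cascade of blood and tissue proteins that tags particles and cells for removal. C1q is built from the products of C1qa, C1qb and C1qc, and it carries the proteases C1r and C1s. Of these, C1s cuts C4 and C2 to start the classical pathway. All pathways meet at C3, and the fragment C5a acts on white cells through the receptor encoded by C5ar1. Liver makes most circulating complement, whereas C1q is made mainly by macrophages and related cells, and C1r and C1s are also made by fibroblasts.

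The arrays had nearly equal medians, from 33.4 to 33.9, but 2 arrays stood apart from their groups in genes of the atrium. Sham array 2 was high in genes of the atrium, with a summed value over 4 markers of 486.6 against 214.2 and 218.7 on the other sham arrays. F- array 1 was high in Nppa, which encodes atrial natriuretic peptide, at 155.6 against 37 and 43.6 on the other F- arrays, 134.3 to 149.5 in F+ and 135.8 on sham array 2. Its part in the complement values was not tested. Results are therefore also given without these 2 arrays. Other arrays stood apart in other markers. The summed red cell markers were 292.2 on F+ array 1 against 180.4 and 205.5 on the other F+ arrays. The summed mast cell markers were 188 on F+ array 2 against 155.7 and 163. All 9 cardiomyocyte markers were outside the dimmest 33.3% of features on average, and their sum was 1390.3 to 1426.9 on the 9 arrays.

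The sequence before the start of 4 of the genes, C1qa, C1qb, C1r and C3, is held in the RefSeq promoter table of GRCr8. The 250 bases before the start are shown for 2 of the C1q genes, whose array values moved together, and for C1r, whose protein binds C1q and whose values spread less. Capitals mark matches to 5 short motifs, searched on both strands. They are GAGGAA, the core bound by PU.1, a factor of myeloid cells, the STAT element TTCNNNGAA, the C/EBP element TTGCNNAA, the TATA box TATAAA and the interferon response element (GAAA, any 2 bases, then GAAA). The C1qa sequence lies at chr5:154419934-154420183 on the minus strand, that of C1qb at chr5:154407828-154408077 on the minus strand and that of C1r at chr4:159098763-159099012 on the plus strand.
C1qa: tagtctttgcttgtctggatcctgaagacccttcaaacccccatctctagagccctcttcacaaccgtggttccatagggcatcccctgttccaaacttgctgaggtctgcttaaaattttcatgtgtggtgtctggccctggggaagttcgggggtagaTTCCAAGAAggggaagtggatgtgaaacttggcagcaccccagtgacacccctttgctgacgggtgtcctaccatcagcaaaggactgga
C1qb: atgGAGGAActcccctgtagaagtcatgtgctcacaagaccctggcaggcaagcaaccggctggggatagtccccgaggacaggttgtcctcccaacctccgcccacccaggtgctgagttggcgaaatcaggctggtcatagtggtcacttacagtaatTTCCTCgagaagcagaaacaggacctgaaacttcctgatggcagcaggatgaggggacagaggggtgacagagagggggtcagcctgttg
C1r: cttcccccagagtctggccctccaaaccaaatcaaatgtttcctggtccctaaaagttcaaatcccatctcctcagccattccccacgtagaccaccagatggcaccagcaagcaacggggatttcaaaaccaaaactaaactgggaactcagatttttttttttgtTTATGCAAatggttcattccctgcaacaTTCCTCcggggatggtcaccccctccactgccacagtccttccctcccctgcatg
The C1qa window held 1 STAT match, that of C1qb held 2 PU.1 matches, and that of C1r held 1 PU.1 and 1 C/EBP match. The window of C3 held 1 C/EBP match, which begins 104 bases before the start. No window of the 4 held the interferon element or the TATA box, and none of these matches overlapped a match to another motif. Among 33469 rat windows of the same length, 23.3% held the PU.1 letters, 7.7% the STAT element, 9.2% the C/EBP element, 3.4% the interferon element and 12.9% the TATA box. A match describes the letters only.

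The genes of all 3 C1q chains were higher on average in F+ than in Sham, and for C1qb every F+ array also exceeded every F- array. C1qa, which encodes the A chain, gave 57.7, 54.8 and 56.1 in Sham, 69.2, 50.7 and 56.6 in F- and 64.2, 70.5 and 71.2 in F+. F- array 1 lay among the F+ arrays, and the other F- arrays lay near the sham arrays. C1qb, which encodes the B chain, gave 60.7, 54.6 and 57.8 in Sham, 65.8, 54.9 and 56.7 in F- and 70.7, 72.6 and 71.3 in F+. The F+ arrays were above all others, and F- array 1 was the next highest. C1qc, which encodes the C chain, gave 57.3, 54.9 and 57.8 in Sham, 69, 55.1 and 53 in F- and 69.2, 68.2 and 64.6 in F+. F- array 1 again lay within the range of the F+ arrays. C1qb, C1qc and C1qa lie next to each other on chromosome 5 in GRCr8, with 0 other genes starting between them, and were measured by separate features.

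For F+ over F-, the comparison that asks what accompanies fibrosis among banded hearts, C1qb had the highest fold change of the 7 genes. C1qb averaged 71.5 ± 0.971 (standard deviation, SD, n = 3) in F+ and 59.1 ± 5.84 (SD, n = 3) in F-. The log2 fold change was 0.28 (standard error, SE, 0.069, 95% confidence interval, CI, 0.12 to 0.44, limma adjusted p = 0.567), which is 1.21-fold in deposited values. C1qa was 68.6 ± 3.86 (SD, n = 3) in F+ and 58.8 ± 9.45 (SD, n = 3) in F-. Its log2 fold change was 0.23 (SE 0.10, 95% CI -0.0073 to 0.47, limma adjusted p = 0.674). C1qc was 67.3 ± 2.42 (SD, n = 3) in F+ and 59.0 ± 8.70 (SD, n = 3) in F-, a log2 fold change of 0.20 (SE 0.092, 95% CI -0.014 to 0.41, limma adjusted p = 0.676). None of the C1q differences passed over all features.

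C1r and C1s, the proteases of the C1 complex, had smaller fold changes than C1qb and a smaller spread between arrays, and every F+ array lay above every F- array for both. C1r gave 96, 95.5 and 97.3 in Sham, 99, 94.8 and 94.1 in F- and 102.3, 109 and 101 in F+. The sham and F- arrays overlapped. For F+ over F- its log2 fold change was 0.12 (SE 0.036, 95% CI 0.034 to 0.20, limma adjusted p = 0.624). C1s gave 66.9, 68.3 and 64 in Sham, 74.6, 71.1 and 69.6 in F- and 75.3, 77.3 and 75.7 in F+. The 3 groups of C1s did not overlap, in the order sham-operated, F- and F+, although F- array 1 lay just below the lowest F+ array. Its log2 fold change was 0.085 (SE 0.036, limma adjusted p = 0.672) for F+ over F- and 0.11 (SE 0.036, 95% CI 0.028 to 0.20, limma adjusted p = 0.743) for F- over Sham. The pooled SD of log2 values within groups was 0.042 for C1r, 0.042 for C1s and 0.14 for C1qa. C1r and C1s are neighbours on chromosome 4 in GRCr8, as are the C1q genes on theirs.

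The F+ and F- arrays of C3 and C5ar1 overlapped. C3, the central component, gave 35.7, 30.6 and 35.1 in Sham, 40.4, 33.4 and 32.1 in F- and 37.7, 39 and 35.7 in F+. Its highest value was on F- array 1 and its lowest on sham array 2, and its log2 fold change for F+ over F- was 0.092 (SE 0.095, 95% CI -0.13 to 0.31, limma adjusted p = 0.828). C5ar1 gave 53, 50.4 and 53.8 in Sham, 60.4, 47.1 and 50.4 in F- and 55.9, 63.3 and 59.5 in F+. F- array 1 again lay among the F+ arrays, and the other F- arrays were at or below the lowest sham array. The log2 fold change of C5ar1 was 0.18 (SE 0.090, 95% CI -0.024 to 0.39, limma adjusted p = 0.683).

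**Figure D1:**
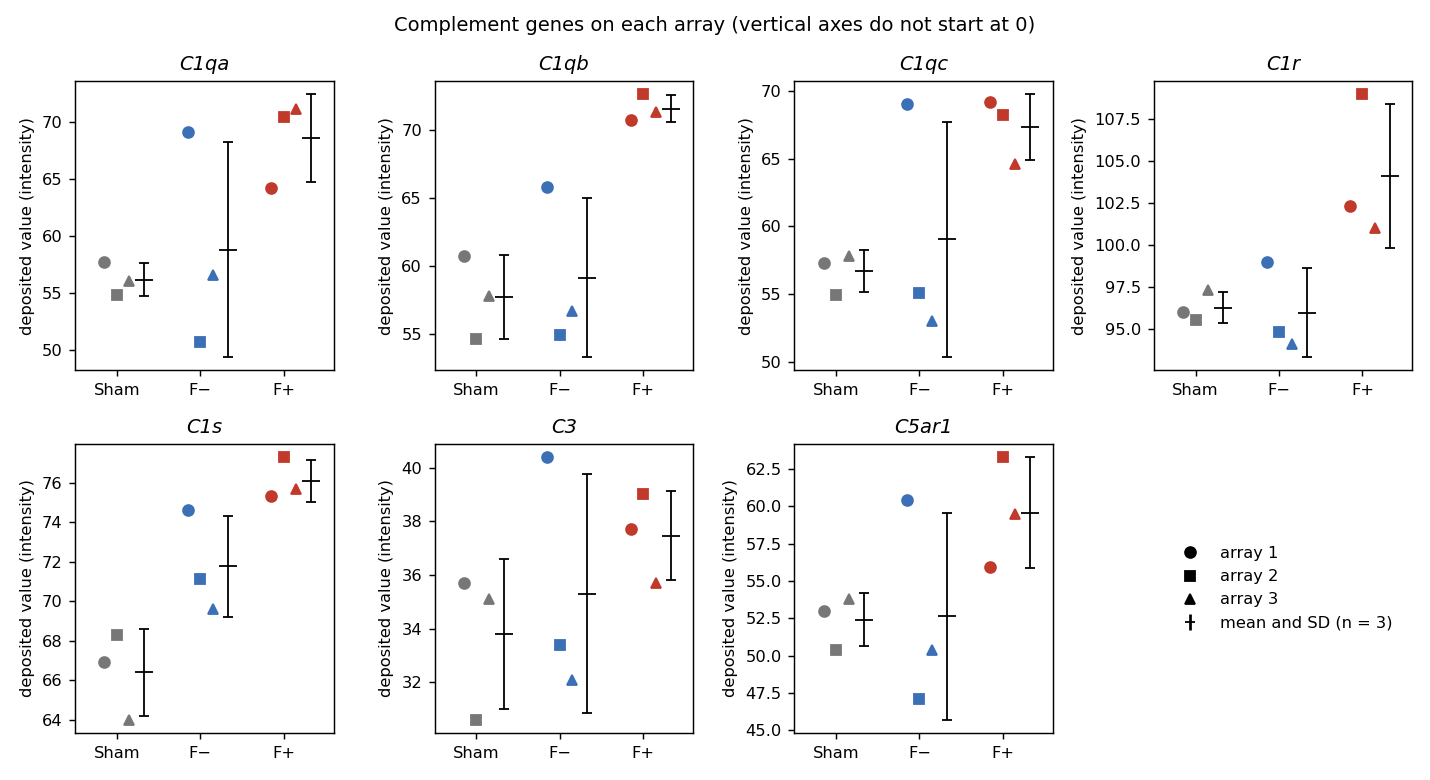
Deposited values (vertical axes, which do not start at 0) of the 7 complement genes for every array by group, where circle, square and triangle stand for arrays 1, 2 and 3, and the mean and SD of each group in black. F- array 1 is the highest F- array for each gene, and for C1qb, C1r and C1s it stays below the F+ arrays.

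All 7 genes were higher on average in F+ than in F-, as were 48.2% of all features. For 3 of the 7, the F+ arrays lay above every F- array, against 4.46% of all features. The median log2 fold change of the 7 genes was 0.18, and that of all features was -0.0023. None of the 7 passed limma over all features, where 0.00342% of features passed in this comparison, and 3 had an unadjusted p under 0.05 from limma with a higher value, against 3.65% of all features. The exact two-sided permutation test of single genes reached its lower limit for groups of 3, p = 0.1, in the 3 genes without overlap. These genes were chosen with results of the same arrays known, so the counts are a description.

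For F- over Sham, the comparison that asks what accompanies banding without fibrosis, 5 of the 7 genes had higher values, where 48.1% of all features did, at a median log2 fold change of 0.049. C1s was the 1 gene whose F- arrays lay above every sham array, as 5.15% of all features did, and the 1 gene with an unadjusted p under 0.05 from limma, against 3.07% with a higher value. The log2 fold changes of the other 6 genes lay between -0.0048 for C1r and 0.059 for C3, with adjusted p-values of 0.884 to 1 from limma. C1r and C5ar1 (-0.0011) were the 2 genes with lower values, and both became higher after median centring of the arrays (0.0038 and 0.0075). For C1qa the 95% CI of this difference was -0.19 to 0.29. No feature passed limma in this comparison (0%), and 1762 had an unadjusted p under 0.05. Without F- array 1, the log2 fold changes turned to -0.069 for C1qa, -0.047 for C1qb, -0.068 for C1qc and -0.042 for C3, whereas C1s stayed at 0.084.

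For F+ over Sham, groups that differ in both banding and fibrosis, all 7 genes had higher values, where 47.4% of all features did. For 6 of the 7 the F+ arrays lay above every sham array, against 5.69% of all features, and C3 was the exception. The median log2 fold change was 0.20. The log2 fold change was 0.31 (SE 0.069, 95% CI 0.15 to 0.47) for C1qb, 0.29 for C1qa, 0.25 for C1qc, 0.20 (SE 0.036, limma adjusted p = 0.564) for C1s, 0.18 for C5ar1, 0.15 for C3 and 0.11 for C1r. None of the 7 passed limma over all features (0% of features passed, and 2163 had an unadjusted p under 0.05), and 5 had an unadjusted p under 0.05 with a higher value, against 3.5% of all features. The comparisons share arrays, so their values are given side by side and are not independent of each other.

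F- array 1 had the highest value of the F- arrays for 7 of the 7 genes, and for 4 of them (C1qa, C1qc, C3 and C5ar1) it was at or above the lowest F+ array. Without it, for all 7 genes each F+ array exceeded the other 2 F- arrays, as for 11.1% of all features, and the median log2 fold change was 0.29. C1qa then had 0.36, C1qb 0.36, C1qc 0.32, C5ar1 0.29 and C3 0.19 on the log2 scale. The fold changes of C1r (0.14) and C1s (0.11) moved less. Leaving out another F- array lowered the values instead. Without F- array 2, C1qa had 0.13, C5ar1 0.11 and C3 0.056, and without F- array 3, C1qc had 0.13 and C3 0.028. Without sham array 2, the log2 fold change of C1qb for F+ over Sham was 0.27.

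**Figure D2:**
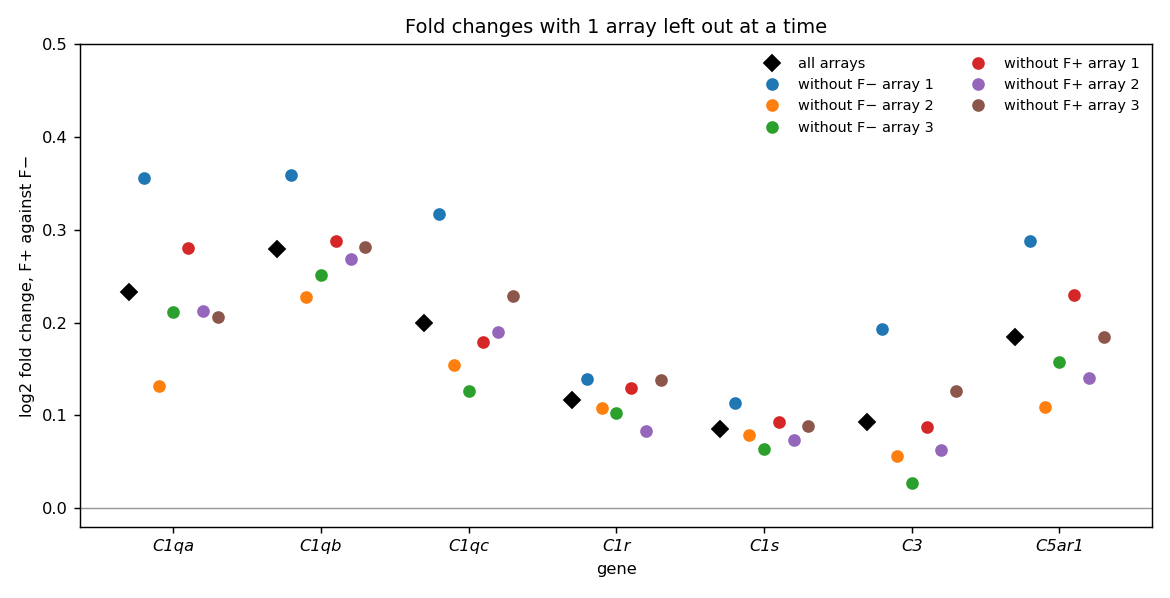
Log2 fold changes for F+ over F- (vertical axis) of the 7 complement genes, with all arrays as black diamonds and with each F- or F+ array left out in turn as coloured points. All points lie above 0, and the highest point of each gene is the one without F- array 1, up to 0.36 for C1qb.

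Macrophage markers moved with the C1q genes over the arrays. Of 19 macrophage markers, 18 were higher in F+ than in F-, at a median log2 fold change of 0.18, and for 9 every F+ array exceeded every F- array, against 4.46% of all features. Their summed value was 1070.4 to 1134.1 in Sham, 1101.7 and 1073.9 on F- arrays 2 and 3, 1244 on F- array 1 and 1263.5 to 1307.7 in F+. The mean of C1qa, C1qb and C1qc, each centred over the 9 arrays on the log2 scale, was 0.15 on F- array 1, 0.15 to 0.20 in F+ and -0.20 to -0.066 on the other 5 arrays. Thus the same 4 arrays were high in both, and no array lay between. Csf1r, which encodes the receptor of the main macrophage growth factor, gave 70.9, 65.8 and 67.3 in Sham, 76.3, 65.1 and 64.3 in F- and 76.7, 81.3 and 79.4 in F+. Cd163, which encodes a scavenger receptor of tissue macrophages, had a log2 fold change of 0.38 (SE 0.10, limma adjusted p = 0.594) for F+ over F-. Ccr2, which marks monocytes recruited from blood, was the 1 marker that was lower in F+, at -0.12 (SE 0.067). None of the 19 passed limma over all features, none was in the dimmest 33.3%, and their part in the C1q values was not tested. In whole ventricle, more cells of a type and more RNA per cell cannot be told apart.

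Fibroblast markers followed the arrays less closely. Of 10 fibroblast markers, 7 were higher in F+ than in F-, at a median log2 fold change of 0.028, and for 1, Fbln1 (0.12, SE 0.032), which encodes fibulin 1, every F+ array exceeded every F- array, against 4.46% of all features. Their summed value was 836.2 to 882.8 in Sham, 841.8 to 907.4 in F- and 865.6 to 934.8 in F+, so the groups overlapped. Postn, which encodes the matrix protein periostin of activated fibroblasts, gave 40.5, 42.9 and 50.2 in Sham, 86.7, 43.6 and 35.4 in F- and 65.5, 69.4 and 77.6 in F+. F- array 1 was thus the highest of the 9 arrays for Postn, against the order of the group labels. The part of these markers in the values of C1r and C1s was not tested.

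**Figure D3:**
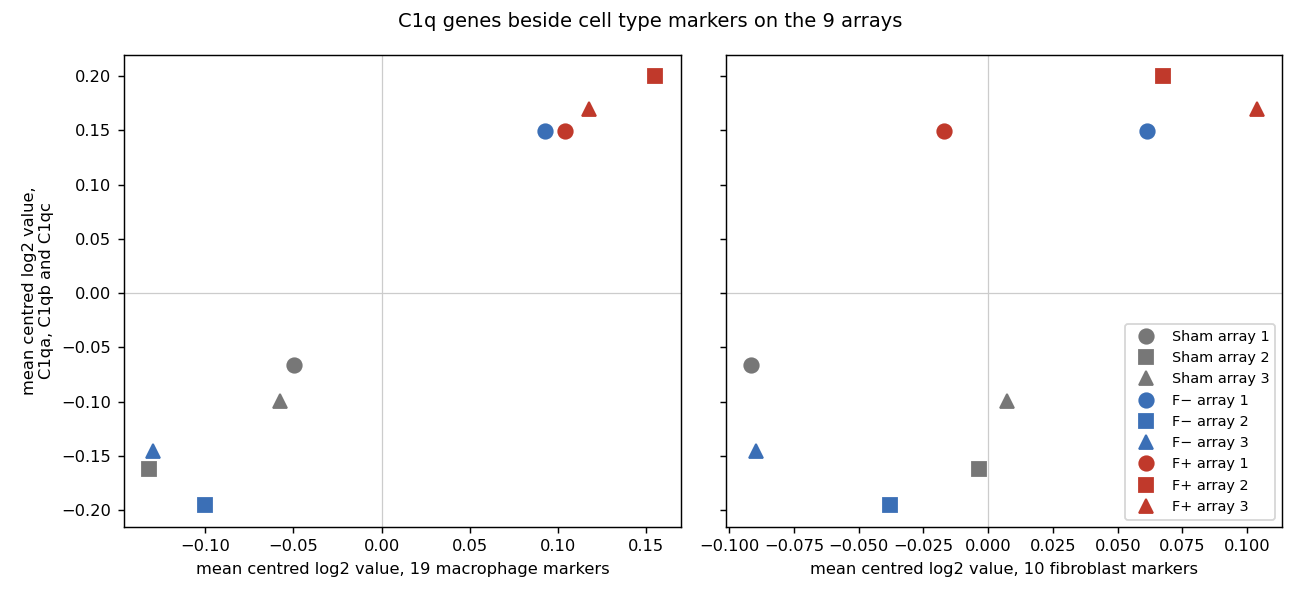
Mean centred log2 value of C1qa, C1qb and C1qc (vertical axes) against that of 19 macrophage markers (left) and 10 fibroblast markers (right) on the 9 arrays, with colours for groups and shapes for arrays 1, 2 and 3. On the left, F- array 1 lies with the F+ arrays and the other 5 arrays lie below 0 on both axes, and on the right the groups overlap along the horizontal axis.

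The genes whose pattern over the 9 arrays was most like that of C1q were ranked by Pearson's r with the mean of the 3 chains, among 8696 genes with a feature brighter than the median. The first 10 were Csf1, Csf1r, Washc2c, Tgm2, Tmem100, Ifitm1, Enah, Fcmr, Akip1 and Timp1, with r from 0.97 to 0.98 over 9 arrays. Because the arrays lie in 2 sets, r reflects that split. Csf1, which encodes the ligand of the Csf1r receptor, gave 60, 56.9 and 60.7 in Sham, 67.2, 55.8 and 58.2 in F- and 66.2, 69.8 and 66.1 in F+. Timp1, which encodes an inhibitor of matrix metalloproteinases, gave 69.2, 67.6 and 77.7, then 102.8, 66 and 64, then 96.4, 105.6 and 100.3 on the arrays in the same order. Among the other complement genes, C5ar1 ranked 55th (r = 0.94), C1r 251st (0.86), C3 324th (0.84) and C1s 498th (0.80).

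Of 46 further genes of the complement pathway, 39 had a feature of their own. For F+ over F- 31 of the 39 had higher values, at a median log2 fold change of 0.031, and for 5 (Serping1, Itgam, C6, Fcna and C5ar2) every F+ array exceeded every F- array, against 4.46% of all features. The F+ arrays of C6, Fcna and C5ar2 overlapped the sham arrays. For Fcna and C5ar2 every F- array lay below every sham array, and the log2 fold changes for F+ over Sham were 0.022 and 0.017. None passed limma over all features, 7 had an unadjusted p under 0.05 with a higher value, against 3.65% of all features, and none with a lower value. With Sham as the baseline, 12 of the 39 were higher in F- (median -0.029) and 20 in F+ (median 0.010), with 0 passing in either.

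Of 9 receptors and binding proteins 7 were higher in F+ than in F-, with a median of 0.13, and the gene of C1 inhibitor was higher too. Serping1, which encodes the inhibitor of C1r and C1s, gave 102.9, 104.7 and 103.3 in Sham, 105.2, 101.9 and 102.4 in F- and 110.1, 113.4 and 114.7 in F+. The F+ arrays were above all others, and F- array 1 was close to the sham arrays. Its log2 fold change for F+ over F- was 0.13 (SE 0.026, 95% CI 0.067 to 0.19, limma adjusted p = 0.481). Itgam and Itgb2, which encode the 2 chains of complement receptor 3, had log2 fold changes of 0.15 (SE 0.042) and 0.22 (SE 0.088). Itgam gave 30.3 to 31.8 in Sham, 30.7 to 32.4 in F- and 32.9 to 36.1 in F+, without overlap of the F+ arrays with the others. C3ar1, which encodes the receptor of C3a, gave 48.9, 45.3 and 50.9 in Sham, 59.4, 45.2 and 43.1 in F- and 57.6, 58.4 and 59.3 in F+. It was as high on F- array 1 as in F+. Cd55, which encodes decay-accelerating factor, had the highest fold change of the 39, at 0.30 (SE 0.12, limma adjusted p = 0.670), but F+ array 1 (55) lay below F- array 1 (60.2).

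Of the alternative pathway, Cfp, which encodes properdin, had 0.14 (SE 0.058) and Cfd, which encodes factor D, had 0.13 (SE 0.060) for F+ over F-. Cfd was 36.5 ± 1.64 (SD, n = 3) in Sham, 33.1 ± 2.51 (SD, n = 3) in F- and 36.2 ± 1.37 (SD, n = 3) in F+. Of 8 starters of the lectin and classical pathways, 6 were higher in F+ than in F-, with a median of 0.026. Fcna, which encodes a ficolin, had 0.048 and Colec11, which encodes a collectin, had 0.082. Fcnb, another ficolin gene, named after its values were seen, had the highest fold change of the 8 (0.14, SE 0.11), with overlapping arrays and its highest value, 52.2, on F- array 1. Of 6 terminal components, 5 had higher values with a median of 0.024, and C6 had 0.20, C8g 0.064 and C7 0.021, all of which encode parts of the membrane attack complex. C7 was lower on every F- array than on any sham array, at 114.5 to 120.3 against 121.2 to 129.4. The 39 pathway genes held 4 such genes, C7, Fcna, Susd4 and C5ar2, and 0 that were higher on every F- array. The share of all features lower in this way was not computed. Of 8 soluble regulators 6 were higher, among them C4bpa, a chain of C4b-binding protein (0.092), and Cpn2 (0.16), and of 6 membrane regulators 5 were higher, with Susd4 at 0.023. Cpn2, a subunit of carboxypeptidase N, was 0.20 lower in F- than in Sham on the log2 scale (-0.20, SE 0.070, limma adjusted p = 0.743).

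**Figure D4:**
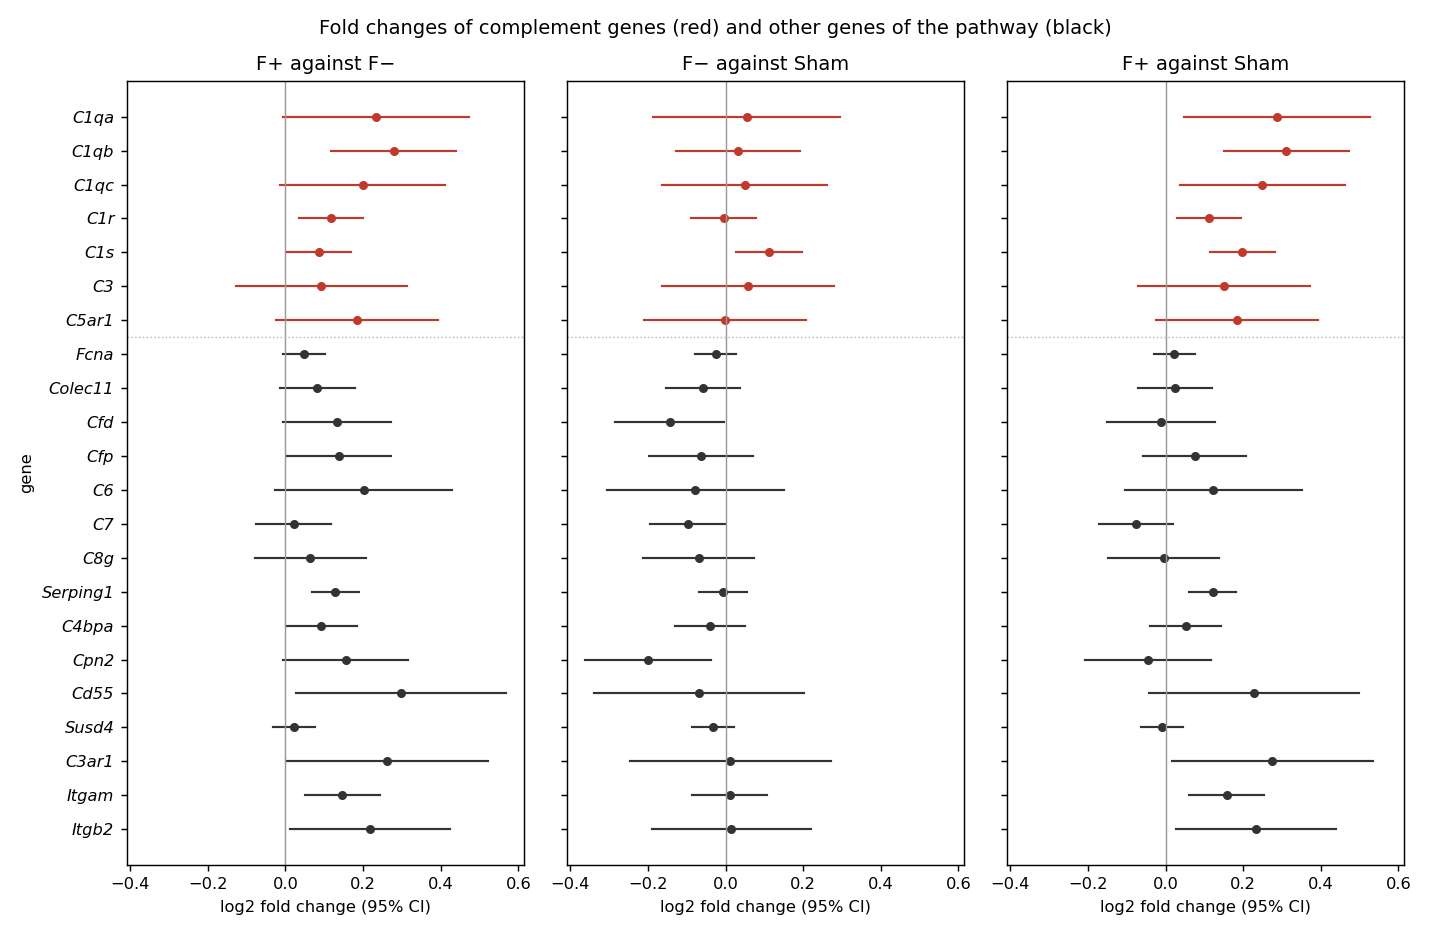
Log2 fold changes (horizontal axes) with 95% CIs as lines, for the 7 complement genes in red and 15 other genes of the pathway in black, in the 3 comparisons. In the left panel the intervals of C1qb, C1r, C1s, Serping1 and Itgam are among those above 0, and in the middle panel those of the C1q genes span 0.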

How the data were processed

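Right ventricles of 3 sham-operated, 3 F- and 3 F+ arrays were used. The authors deposited 1 signal intensity per feature and array from Affymetrix Rat Gene 1.0 ST arrays. Background correction, summarization, normalization and scale are not given in the sources used here, but the quartiles of the arrays were nearly equal. Genes were named from the platform annotation, in which 15310 of 29215 features carry 1 symbol, 323 several and 13582 are not listed. All 7 members matched GRCr8 by gene ID with unchanged symbols. After a log2 transformation, the deposited intensities of all 9 arrays entered a model with a mean for every group (limma 3.58.1, lmFit then eBayes, run under R 4.3.3, tables handled by data.table version 1.17.8). Benjamini-Hochberg adjustment ran over all features at 0.05. Where a gene had several features, the one with the highest mean was used. Further pathway genes were named if an unadjusted p was under 0.05 in any comparison or if theirs was among the 2 smallest p-values of their role for F+ over F-. The members and lists were chosen with earlier results of these data known. The fit was tested on simulated data. Alternatives covered normalization, features, the replicate block, the samples in the fit, the variance model, the scale and each array left out, and 1 was added after seeing the data. Plots used Python 3.11.15, pandas 2.3.3 and matplotlib 3.10.9. The values came without a measure of precision of their own, so the SDs, SEs and CIs here rest on the spread among arrays. No batch label was found in the sources. The cell cultures and RT-PCR were not analysed here.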

Additional observations from a re-analysis of the deposited data

How the results depend on the processing

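No complement gene passed limma over all features under any of 20 alternatives, and the smallest adjusted p was 0.0816. All 7 genes kept a higher value in the F+ group than in either other group under all 20, as C1s did for F- over Sham, which makes 15 of 21 results that kept 1 direction. For F+ over F-, 3 features passed without the dimmest 33.3%, with only 1-symbol features, with a trend and robust priors, without a transformation, averaging every feature of a gene, and with F- array 1 and sham array 2 both left out (chosen after seeing the data). There 0 passed with only the 2 groups compared, and 0 to 3 with 1 array left out, against 1 with all arrays. For F+ over Sham 1 passed with only the 2 groups or without both arrays, against 0. The median of the 7 genes for F+ over F- ran from 0.11 (without F- array 2) to 0.29 (without F- array 1) with 1 array left out, and was 0.29 without both arrays. In square root units it was 0.47, and 0.58 against the sham-operated group, which is another scale. Genes higher on every F+ array numbered 3 to 7 with 1 array left out (7 without F- array 1) and 7 without both. The share of all features that met this rule rose too, from 4.46% with all arrays to 11.1% without F- array 1. For the other settings with arrays left out the share was not computed, so the rise to 7 is not by itself a gain of these genes. For F- over Sham the median was -0.087 without both arrays.

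Other reversals were for F- over Sham. C1r turned to 0.0038 after median centring and ran from -0.027 to 0.0092 with 1 array left out. C5ar1 turned to 0.0075 after median centring, 0.0064 without a transformation and 0.0066 as square roots, and ran from -0.10 to 0.075 with 1 array left out. With 1 array left out C1qa ran from -0.069 to 0.16, C1qb from -0.047 to 0.083, C1qc from -0.068 to 0.12 and C3 from -0.042 to 0.12. Without both arrays C1qa was -0.087, C1qb -0.086, C1qc -0.091 and C3 -0.11. The cause was not tested.

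Replicate numbers are shared across groups, but same-numbered arrays did not deviate together (r from -0.21 to 0.053 across features), so the numbers do not pair the arrays. With the replicate block, 0 features passed for F+ over F- and the members' calls did not change.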

Other observations

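Markers of other blood cells were measured on the same arrays. Of 6 T and B cell markers with a feature, 5 were higher in F+ than in F- (median log2 fold change 0.074). Among the 6, 3 were in the dimmest 33.3% of features. Their summed value was 206.3 to 211.8 in F+ and 190.9 to 198.6 on all others, but Cd4 was the brightest and weighed most in it. Cd4, which rat macrophages also carry, gave 81.4 to 83.6 in F+, 70.8 to 80.5 in F- and 71 to 77.2 in Sham. For 2 of the 6, Cd4 and the T cell gene Cd3d, every F+ array exceeded every F- array, against 4.46% of all features. Cd3d gave 20.8 to 22.2 in F+, 18.4 to 20.6 in F- and 20.5 to 20.8 in Sham, so its lowest F+ array tied with sham arrays. The F+ arrays of Cd4 lay above all others. The sum can therefore not be read as a value of T and B cells alone. Of 6 mast cell markers, 5 were higher in F+ (median 0.10), and Cpa3 was highest on F+ array 2 (50). Of 6 neutrophil markers 2 were higher and 4 lower, with a median of -0.0022. Of 5 red cell markers all were higher, with a median of 0.62, and their sum was highest on F+ array 1 (292.2). Of 5 endothelial markers 3 were higher (median 0.035), of 9 cardiomyocyte markers 1 was higher (median -0.010), and of 4 atrial markers 2 were higher (median 0.021). None of these passed limma over all features.

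Liver is the main source of circulating complement. Of 7 hepatocyte markers, 2 were higher in F+ than in F- (median -0.014), and 3 of the 7 were in the dimmest 33.3% of features. Alb, which encodes albumin, gave 67.6 on F- array 3 and 21.9 to 40.7 on the other 8 arrays.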
